A study of Mus musculus with 6 samples.

Results

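The genes described here mark B lymphocytes and the antibody-secreting plasma cells that arise from them. They are 10 genes, 6 of B cells (Cd79a, Cd79b, Ms4a1, Cd22, Cr2 and Fcer2a) and 4 that are high in plasma cells (Pou2af1, Mzb1, Jchain and Ighm), out of 18193 genes with a probe set of their own on the array. A probe set, the group of short probes that reads 1 transcript, was taken where the array platform's annotation gave it to 1 of these genes alone. This gave 23 of 45037 probe sets, and each gene is given by its brightest, with all 11 probe sets shown for Ighm. Total RNA came from pancreatic tumour cells of C57BL/6 mice aged 11 weeks, and 1 Affymetrix array was hybridised per sample. The 3 samples called Msi1 KO had the genotype Msi1 -/-, and the 3 called wt were wild type for Msi1, which encodes the RNA-binding protein Musashi 1. All 6 carried engineered tumour alleles, among them those that the labels spell p53f/f and ptf1a-Cre, the last a Cre recombinase under control of a gene of pancreatic progenitor and acinar cells. The labels name no sort or enrichment and do not say whether animals were pooled, so p-values cover only the spread between samples, which may be technical, and the number of arrays limits the precision.

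B cells recognise antigen through membrane immunoglobulin, which signals through the paired chains Cd79a and Cd79b. Activated B cells can turn into plasma cells, which give up most B cell surface proteins, enlarge their secretory pathway and release antibody, joined into polymers by the J chain in the case of IgM and IgA. Both cell types occur among the immune cells that infiltrate pancreatic tumours, single or in lymphoid aggregates.

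Upstream sequence was taken from RefSeq on GRCm38.p6 to show the start regions of a B cell gene and a plasma cell gene whose array patterns differed. For 6 of the 10 genes (Cr2, Jchain, Cd79a, Cd22, Fcer2a and Pou2af1) the 250 bases before 8 annotated starts were searched on both strands for the octamer ATGCAAAT, which Pou2af1 and octamer factors bind, for the motif of the B cell factor EBF1, written as TCCC and GGGA with any 2 bases between them, and for the E box CAGGTG of E proteins. The motifs did not overlap one another in these windows. The octamer was in 0 of the 8 windows, beside 1.6% of 32851 windows of this length. The EBF1 motif was in 1 window, that of Cd22, beside 0.779%. CAGGTG was in 4 of the 8, beside 17.2%. The starts used for Cd22 and Cr2, and that of the matching Fcer2a window, are not the outer end of the gene. Fcer2a gave more than 1 of the 8 windows. A match describes letters and is no binding site by itself. The sequences are printed 5′ to 3′ along the gene, with motif matches in capitals: the window of Cd79a is chr7:24897247-24897496 (+ strand), that of Jchain is chr5:88527898-88528147 (- strand), and of Cd22 30 bases are shown, from -59 to -30 relative to its start, chr7:30879058-30879087 (- strand), around the EBF1 motif.
Cd79a: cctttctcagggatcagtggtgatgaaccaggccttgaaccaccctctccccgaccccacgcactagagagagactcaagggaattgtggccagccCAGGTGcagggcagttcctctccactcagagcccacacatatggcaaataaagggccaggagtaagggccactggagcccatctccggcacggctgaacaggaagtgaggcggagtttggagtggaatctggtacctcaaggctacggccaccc
Jchain: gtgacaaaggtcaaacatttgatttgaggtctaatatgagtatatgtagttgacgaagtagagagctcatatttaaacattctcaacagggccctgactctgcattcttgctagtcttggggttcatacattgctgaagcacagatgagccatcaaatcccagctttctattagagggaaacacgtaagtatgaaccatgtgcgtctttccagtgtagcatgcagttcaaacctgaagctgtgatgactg
Cd22: tcctgcaagaTCCCTGGGGActcacacaga

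Msi1 at its brightest probe set read 141, 168 and 127 in Msi1 KO arrays 1 to 3 and 144, 150.4 and 257 in wt arrays 1 to 3, and the groups overlapped. Where this probe set lies relative to the deleted part was not known here, so it does not check the labels. Median intensity per array lay between 159 and 164. Array background, set at the 95th percentile of 81 olfactory, vomeronasal and trace amine receptor probe sets, was 191 in Msi1 KO 1 and between 163 and 167 in the other 5 arrays. The ratio of 3' to 5' Gapdh control signal, which rises as RNA degrades, was lowest in Msi1 KO 1, at 1.38 against 1.55 to 1.86 elsewhere. By this ratio Msi1 KO 1 showed no loss of RNA quality. Xist read 6226 in wt 3, 376 and 387 in wt 1 and 2, and between 131 and 186 in Msi1 KO arrays. Eif2s3y, a gene of the Y chromosome, read 88 in wt 3 and between 716 and 944 in the other 5 arrays. So wt 3 had a female pattern and the others a male one, and by this sex was not balanced between the genotypes. The part of sex in the values was not tested. The labelled cell type was checked on 8 epithelial markers, all above background on every array, but 8 of 8 markers of leukocytes in general were above it on every array as well.

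B cell genes had higher means in Msi1 KO arrays, but the Msi1 KO arrays differed more from one another than the genotypes did, and no difference passed the test. By the mean of log2 values, all 6 B cell genes and 2 of the 4 plasma cell genes were higher in Msi1 KO. This is 8 of 10, beside 51.4% of all probe sets. Counts of higher or lower means in the other gene lists also refer to log2 values. The median log2 difference, Msi1 KO minus wt, was 0.41 over the B cell genes and 0.11 over the plasma cell genes, beside 0.00 over all probe sets. Of the 10 genes 0 passed the threshold in limma (adjusted p under 0.05 by Benjamini-Hochberg over all probe sets), beside 0.0% of all probe sets, and their smallest adjusted p was 0.9997. At an unadjusted p under 0.05 there was 1 of the 10, Cr2, beside 3.01% of all probe sets. In 0 of the 10 did all Msi1 KO arrays lie on one side of all wt arrays, beside 7.79% of all probe sets. The arrays were ordered alike across genes instead. Msi1 KO 2 had the highest value of 9 of the 10 genes and wt 1 the lowest value of 8.

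Cd79a, a signalling chain of the B cell receptor, read 163, 239.8 and 188 in Msi1 KO arrays 1 to 3, against 160.1, 189.5 and 161 in wt arrays 1 to 3. The values were dim, with 3 of the 6 above array background, and the groups overlapped. The log2 difference was 0.19 ± 0.14 (SE), with a 95% interval of -0.14 to 0.53, and was 0.045 without Msi1 KO 2 and 0.32 without Msi1 KO 1. Cd79b, its partner chain, read 172, 716 and 419.5 in Msi1 KO arrays, against 167, 332 and 269 in wt arrays. Msi1 KO 2 and 3 were the highest arrays here, and Msi1 KO 1 lay just above the lowest, wt 1. Cd79b was below array background in Msi1 KO 1 and barely above it in wt 1. The log2 difference of 0.60 ± 0.49 (SE) had a 95% interval of -0.56 to 1.75, and was 0.13 without Msi1 KO 2, 0.32 without wt 1 and 1.15 without Msi1 KO 1.

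Ms4a1 encodes CD20, a surface protein of B cells that is lost in plasma cells. It read 104, 639 and 353 in Msi1 KO arrays, against 86.3, 257 and 258 in wt arrays. It was below array background in Msi1 KO 1 and wt 1 and above it in the other 4 arrays. The log2 difference was 0.68 ± 0.68 (SE), with a 95% interval of -0.92 to 2.28. It was 0.10 without Msi1 KO 2, 0.15 without wt 1 and 1.40 without Msi1 KO 1. The second Ms4a1 probe set, 1450912_at, put Msi1 KO 2 highest and wt 1 lowest as well, with a log2 difference of 0.59 ± 0.43 (SE).

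Cd22, an inhibitory receptor that restrains B cell receptor signalling, read 454, 798 and 533 in Msi1 KO arrays, against 306, 557 and 463 in wt arrays. It was above background on all 6 arrays, with Msi1 KO 2 the highest and wt 1 the lowest array, and the groups overlapped. The log2 difference was 0.43 ± 0.27 (SE; 95% interval -0.20 to 1.06). It was 0.19 without wt 1 and 0.20 without Msi1 KO 2. Cr2, the complement receptor of mature B cells and follicular dendritic cells, read 161, 225 and 203 in Msi1 KO arrays, against 139, 158 and 164 in wt arrays. Msi1 KO 2 and 3 lay above all wt arrays and Msi1 KO 1 lay between wt 2 and wt 3. Cr2 was dim, above array background in Msi1 KO 2 and 3 and barely in wt 3, and below it in the other arrays. Its log2 difference of 0.34 ± 0.13 (SE; 95% interval 0.04 to 0.64) had an unadjusted p of 0.0299 and an adjusted p of 0.9997 in limma. The exact two-sided permutation p was 0.2, where the smallest that 3 against 3 arrays allow is 0.1. Fcer2a, the low-affinity IgE receptor of follicular B cells, read 142, 292 and 185 in Msi1 KO arrays, against 139, 161 and 151 in wt arrays. The wt values were all below background, and the log2 difference was 0.39 ± 0.23 (SE; 95% interval -0.15 to 0.93), 0.11 without Msi1 KO 2 and 0.63 without Msi1 KO 1. Its dim second probe set, 1451713_a_at, did not overlap between groups, with 89.2 to 104.7 in Msi1 KO arrays and 84.5 to 87.7 in wt arrays, all below background.

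**Figure D1:**
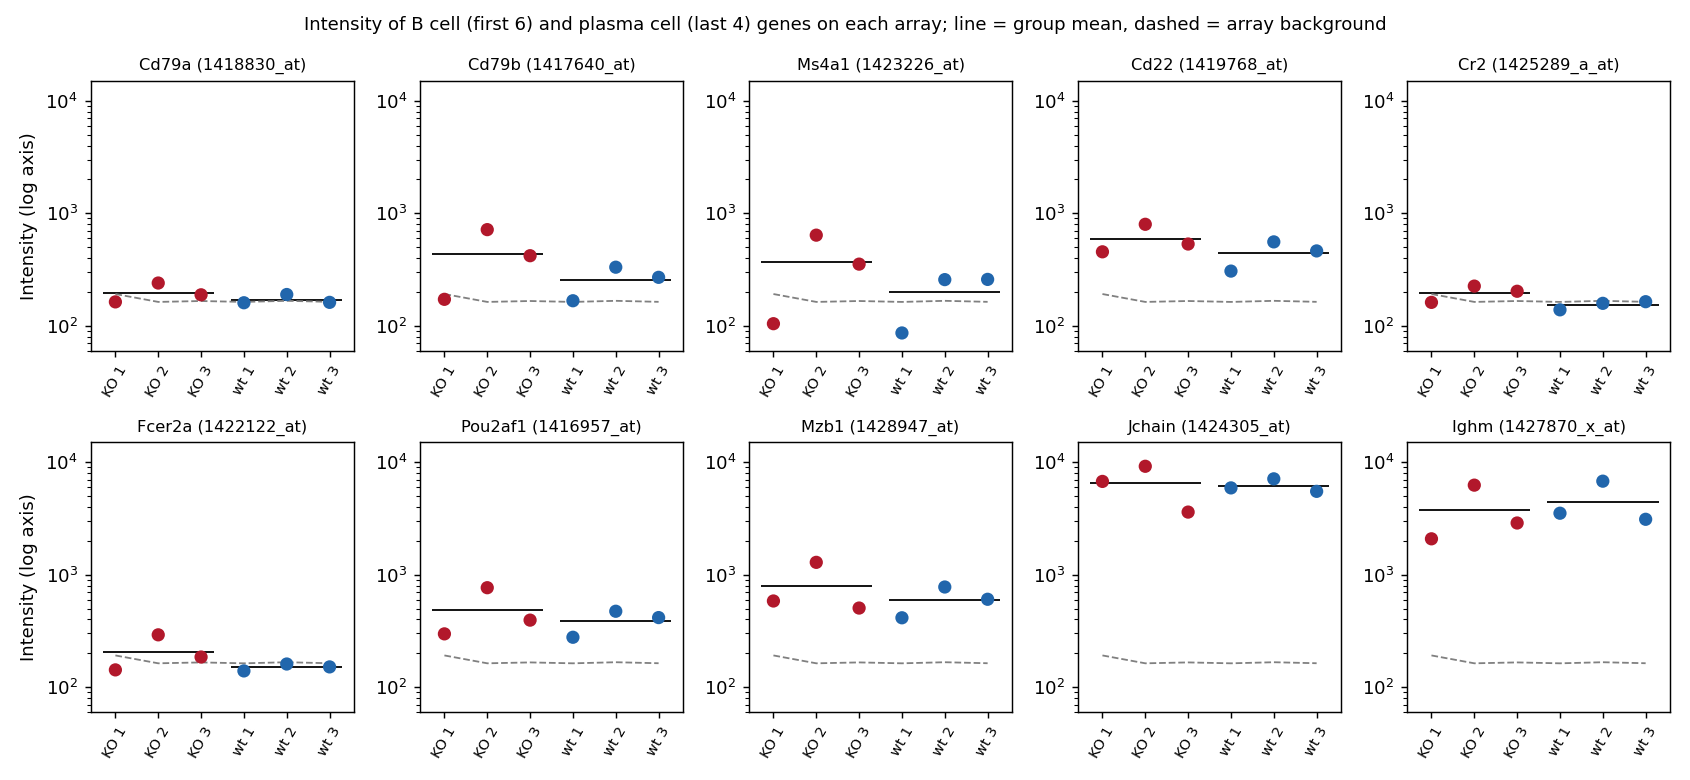
Intensity of the 10 genes on each array on a log axis, Msi1 KO arrays in red and wt arrays in blue. The group mean of intensity is a line and the array background is dashed. The 6 B cell genes were highest in Msi1 KO 2 and lowest in wt 1, while Jchain was lowest in Msi1 KO 3 and Ighm, at this probe set, highest in wt 2.

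Without Msi1 KO 2 the median log2 difference of the B cell genes was 0.12, without wt 1 it was 0.23 and without Msi1 KO 1 it was 0.62. All 6 kept a positive difference in each of the 6 fits that left out 1 array. In bulk RNA such differences can come from more cells of a type or from more RNA per cell, which cannot be told apart.

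The plasma cell genes gave no common direction. Pou2af1 encodes the coactivator OBF-1, which works with octamer-binding factors in B and plasma cells. It read 298, 766 and 394 in Msi1 KO arrays, against 278, 473 and 415.5 in wt arrays. Msi1 KO 2 was highest and wt 1 lowest, as for the B cell genes. Mzb1, a chaperone of the endoplasmic reticulum that helps antibody assembly and secretion, read 584, 1288 and 505 in Msi1 KO arrays, against 414, 777 and 604 in wt arrays. Here Msi1 KO 3 lay inside the wt range, whereas it was the second highest array for 4 of the 6 B cell genes, Cd79b, Ms4a1, Cr2 and Fcer2a. The log2 differences were 0.24 ± 0.35 for Pou2af1 and 0.32 ± 0.37 for Mzb1 (SE), with 95% intervals of -0.58 to 1.06 and -0.55 to 1.20. Both turned negative without Msi1 KO 2, at -0.15 and -0.09.

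Jchain, the joining chain of polymeric IgM and IgA, read 6752, 9205 and 3604 in Msi1 KO arrays, against 5913, 7118 and 5510.1 in wt arrays. The Msi1 KO arrays held both the highest and the lowest value. Their mean intensity of 6520.0 ± 2808 (SD, n = 3) stood beside 6180.4 ± 837 in wt arrays (SD, n = 3). Their mean log2 value was instead slightly lower than that of wt arrays. The log2 difference was -0.02 ± 0.31 (SE; 95% interval -0.74 to 0.71). It was 0.36 without Msi1 KO 3 and -0.32 without Msi1 KO 2.

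Ighm, the constant region gene of the IgM heavy chain, gave several patterns, depending on the probe set. Of its 11 probe sets 3 stayed under 120 on every array, below background. The brightest, 1427870_x_at, read 2085, 6255 and 2882 in Msi1 KO arrays, against 3521, 6786 and 3109 in wt arrays. Its highest arrays were wt 2 and Msi1 KO 2, and the log2 difference was -0.33 ± 0.44 (SE; 95% interval -1.35 to 0.69). Probe sets 1425247_a_at, 1425324_x_at and 1427756_x_at ordered the arrays in nearly the same way, with wt 2 highest, Msi1 KO 2 next and Msi1 KO 1 lowest, and log2 differences of -0.35, -0.29 and -0.26. Probe set 1425385_a_at read 1396, 5786 and 1567 in Msi1 KO arrays, against 2831, 2663 and 2562 in wt arrays. It was thus high in Msi1 KO 2 alone, and its log2 difference was -0.20 ± 0.49 (SE). The dimmer 1452535_at read 269, 476 and 159.8 in Msi1 KO arrays, against 256, 287 and 199 in wt arrays, a log2 difference of 0.16 ± 0.36 (SE).

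Another pair of Ighm probe sets separated the Msi1 KO arrays from one another. The pair was picked after the values were seen, as those with Msi1 KO 2 and 3 above every wt array. Probe set 1427351_s_at read 493, 4754 and 4401 in Msi1 KO arrays, against 1235, 1313 and 1147 in wt arrays. Probe set 1427329_a_at read 265, 2420.4 and 1987 in Msi1 KO arrays, against 509, 689 and 578 in wt arrays. That Msi1 KO 2 and 3 lay above every wt array in both was thus fixed by the choice. Msi1 KO 1 lay below every wt array in both, so the direction was not shared within the genotype. Msi1 KO 2 and 3 were 3.62 and 3.35 times the highest wt array at 1427351_s_at, and 3.51 and 2.89 times at 1427329_a_at. The 3 wt arrays were close together, with means of 1232 ± 82.8 and 592 ± 90.8 (SD, n = 3), while the Msi1 KO means were 3216 ± 2365 and 1558 ± 1140 (SD, n = 3). The log2 differences of 0.82 ± 0.79 and 0.88 ± 0.76 (SE) had 95% intervals of -1.03 to 2.68 and -0.89 to 2.66. When Msi1 KO 1 was left out, 1427351_s_at was the 1 probe set of 45037 with an adjusted p under 0.05 in limma. Its log2 difference was then 1.89 (adjusted p = 0.0426 in limma), and 0 probe sets passed with all 6 arrays. That fit kept Msi1 KO 2, Msi1 KO 3 and the wt arrays, by whose separation the pair was picked, so it gives the pair no separate support. Over the 14 alternatives run on 1427351_s_at, the log2 difference ran from 0.26, without Msi1 KO 2, to 1.89, and the adjusted p from 0.0426 to 1. It was 0.32 without Msi1 KO 3, and 1.51 with array weights, which gave Msi1 KO 1 the lowest weight. By the manufacturer's naming, probe sets ending in _x_at or _s_at can bind related transcripts, and immunoglobulin heavy chain genes share sequence, so the values of single Ighm probe sets are uncertain as measures of IgM alone. A further 4 probe sets were annotated to Ighm together with other genes and were not used.

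**Figure D2:**
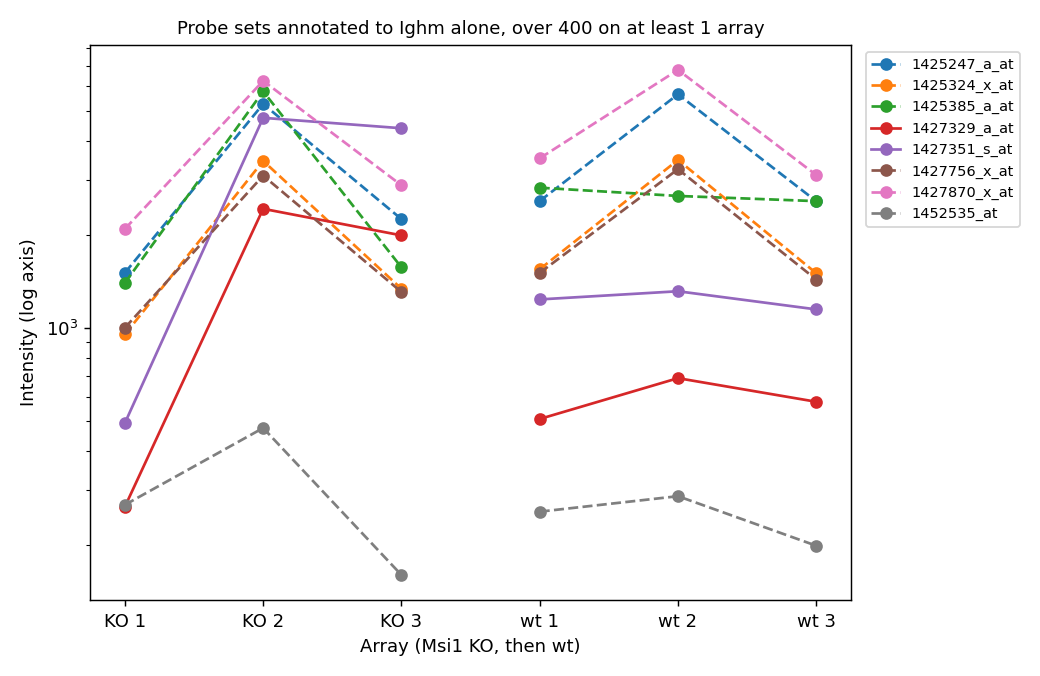
Intensity on a log axis of the 8 Ighm probe sets that passed 400 on at least 1 array, for Msi1 KO arrays 1 to 3 and then wt arrays 1 to 3, with 1427329_a_at and 1427351_s_at as solid lines and the others dashed. The solid pair is high in Msi1 KO 2 and 3 and low in Msi1 KO 1, while 1427870_x_at and the sets parallel to it are high in Msi1 KO 2 and wt 2.

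**Figure D3:**
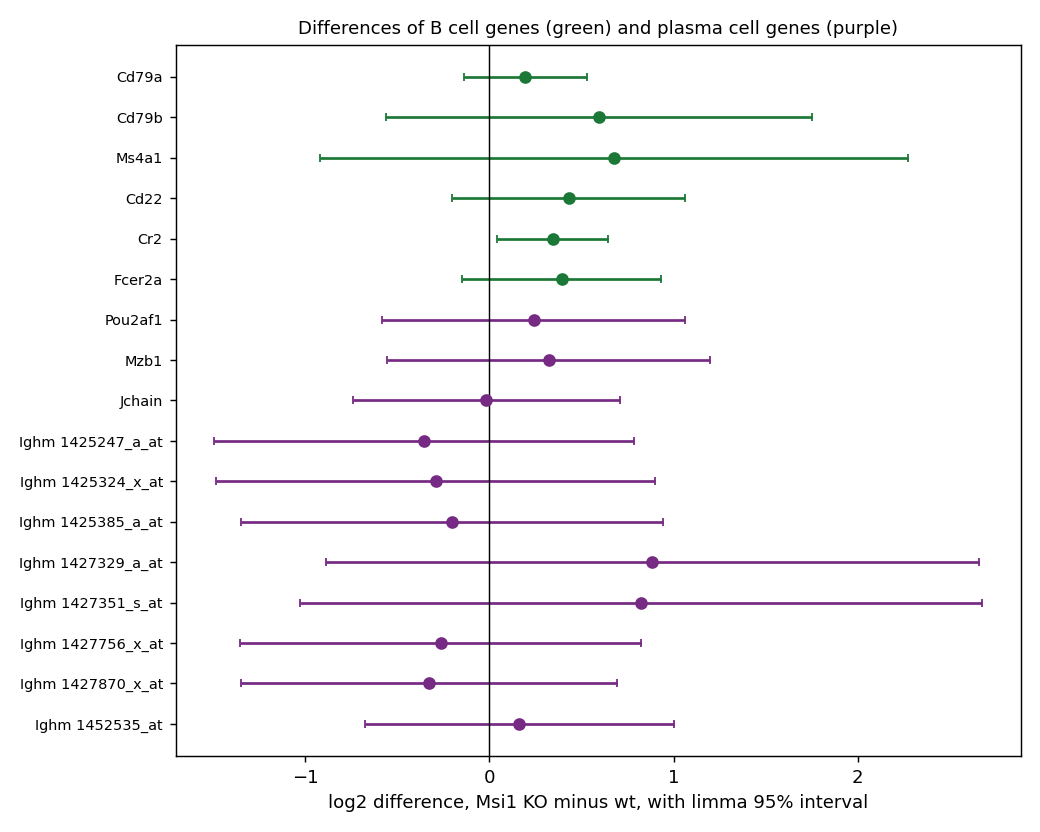
Log2 differences, Msi1 KO minus wt, of 9 genes and of 8 Ighm probe sets, with limma's 95% interval (3 arrays per group), B cell genes in green and plasma cell genes in purple. The interval of Cr2, 0.04 to 0.64, is the 1 among these that leaves out 0, without adjustment for the number of probe sets.

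B cell and plasma cell genes were also set against each other within each array. As an array profile, the log2 values of each gene were centred on their mean over the 6 arrays and averaged over a list. The 6 B cell genes had profile values of -0.43, 0.82 and 0.27 in Msi1 KO arrays 1 to 3, against -0.62, 0.05 and -0.09 in wt arrays. The 4 plasma cell genes had -0.33, 0.80 and -0.39 in Msi1 KO arrays, against -0.34, 0.38 and -0.13 in wt arrays. The plasma cell profile minus the B cell profile was 0.10, -0.02 and -0.66 in Msi1 KO arrays, against 0.29, 0.33 and -0.04 in wt arrays. Its group means were -0.19 ± 0.41 in Msi1 KO and 0.19 ± 0.20 in wt arrays (SD, n = 3). Msi1 KO 3 lay below all other arrays in this measure, and Msi1 KO 1 and 2 lay within the wt range. These values took Ighm from 1427870_x_at and depended on that choice. With the mean of the pair 1427351_s_at and 1427329_a_at in its place, a comparison added after the data were seen, the difference in profiles was -0.10, 0.19 and -0.22 in Msi1 KO arrays, against 0.18, 0.05 and -0.095 in wt arrays. Msi1 KO 3 was again lowest, but at -0.22 in place of -0.66, and Msi1 KO 1 and 2 lay just outside the wt range. Without Ighm the value in Msi1 KO 3 was -0.66.

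Immunoglobulin genes outside the 10 were read for 6 of 16 listed names, 5 of them with a higher mean in Msi1 KO, and 0 passed the threshold. Msi1 KO 2 was the highest array for 5 of the 6, and Msi1 KO 3 and wt 3 were the lowest for 2 each. Igha, the IgA constant region, read 17358, 19133 and 12420.1 in Msi1 KO arrays, against 17160.3, 17706 and 15965 in wt arrays. Msi1 KO 3 was lowest, as for Jchain, and these values approach the highest of any probe set on the arrays, between 19332 and 20365, so differences may be compressed. Iglv1, a lambda light chain variable segment, read 2922, 4491 and 739 in Msi1 KO arrays, against 1711, 1933 and 1392 in wt arrays, again with Msi1 KO 3 lowest. Ighg3, the IgG3 constant region, read 159 in Msi1 KO 1 and 795 and 845 in Msi1 KO 2 and 3, against 434, 569 and 388 in wt arrays, so Msi1 KO 2 and 3 lay above and Msi1 KO 1 below all wt arrays, as in the Ighm pair. Igha and Ighg3 were singled out after their values were seen. Igk, a kappa light chain probe set, and Ighv14-2, a heavy chain variable segment, differed by 0.60 ± 0.34 and 0.79 ± 0.61 on the log2 scale (SE), and Igkv1-117 was below background on every array.

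Further B cell genes followed the array order of the 6. Of 19 measured genes 18 had a higher mean in Msi1 KO, the median log2 difference was 0.29, and 0 passed the threshold. Msi1 KO 2 was the highest array for 15 of the 19 and wt 1 the lowest for 13. Groups did not overlap, with Msi1 KO higher, for 3 of the 19 (Blnk, Cd72 and Pou2f2), beside 4.08% of all probe sets. Blnk, an adaptor protein of B cell receptor signalling that some macrophages also express, read 489.7, 614 and 505 in Msi1 KO arrays, against 311, 452 and 376 in wt arrays. Cd72, a coreceptor of B cells, read 341, 610.3 and 434 in Msi1 KO arrays, against 186, 318 and 302 in wt arrays. Their log2 differences were 0.51 ± 0.16 and 0.78 ± 0.27 (SE), with unadjusted p of 0.0147 and 0.0206 in limma, both at an adjusted p of 0.9997. Blk, a kinase of the receptor, differed by 0.29 ± 0.14, and Pou2f2, the octamer factor Oct-2, by 0.10 ± 0.05 at a level below background on every array (SE). Fcmr, the IgM receptor, had the largest difference in this list, 0.82 ± 0.59 (SE), and read 172, 884 and 466 in Msi1 KO arrays, against 132, 341 and 284 in wt arrays. It was chosen after its values were seen. Pax5, the B cell identity factor, was below background on every array, at 148 to 165, and was likewise chosen after its values were seen.

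Further plasma cell genes were also mostly higher in Msi1 KO by their means. Of 14 measured genes 13 had a higher mean in Msi1 KO, with a median log2 difference of 0.15, and 0 passed the threshold. Msi1 KO 2 was the highest array for 10 of the 14 and wt 1 the lowest for 7. Groups did not overlap, with Msi1 KO higher, for 1 of the 14, Xbp1, beside 4.08% of all probe sets. Xbp1 read 5592 to 5924 in Msi1 KO arrays and 5210.1 to 5450.3 in wt arrays. Slamf7, a surface receptor of plasma cells, differed by 0.21 ± 0.08 (unadjusted p = 0.0351 in limma) at a level below background. Irf4, a factor needed for plasma cell formation, differed by 0.39 ± 0.24, Sec11c, a subunit of the signal peptidase, by 0.31 ± 0.26, and Txndc5 and Fkbp11, both of the endoplasmic reticulum, by 0.19 ± 0.13 and 0.20 ± 0.14 (SE). Xbp1 and Sdc1, which pancreatic and other epithelial cells also express, differed by 0.10 ± 0.07 and 0.04 ± 0.10 (SE). Sec11c, Xbp1 and Sdc1 were picked after their values were seen. Germinal centre genes had a higher mean for 3 of 6, with log2 differences between -0.05 and 0.02. Bcl6, the master factor of germinal centre B cells, differed by 0.02 ± 0.13, Fas by -0.03 ± 0.09, S1pr2 by -0.03 ± 0.10 and the dim Mef2b by -0.05 ± 0.08 (SE).

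Genes that draw B cells in or keep them alive had a higher mean in Msi1 KO for 6 of 8, with a median log2 difference of 0.08 and 0 past the threshold. Tnfsf13b, the survival factor BAFF, read 302, 259 and 230.5 in Msi1 KO arrays, against 224, 232 and 219 in wt arrays. Ltb, a cytokine that organises lymphoid tissue, read 527, 1400.4 and 882 in Msi1 KO arrays, against 452, 1122 and 695 in wt arrays. Cxcl13, the chemokine of B cell follicles, read 453, 3537 and 1127 in Msi1 KO arrays, against 1340.5, 529 and 1041 in wt arrays, so its highest array was again Msi1 KO 2. Lta, a relative of Ltb, and Cxcl12, a chemokine of stroma and marrow, differed by 0.13 ± 0.05, below background, and -0.39 ± 0.32 (SE).

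Markers of other cell types moved with the B cell genes in some arrays. All 10 T cell markers measured had a higher mean in Msi1 KO, Msi1 KO 2 was highest for 9 and wt 1 lowest for 10. Groups did not overlap, with Msi1 KO higher, for 4 of the 10, beside 4.08% of all probe sets and 0 of the 6 B cell genes. An unadjusted p under 0.05 in limma was found for 4 of the 10, beside 3.01% of all probe sets, and 0 passed the threshold. Summed intensity of the T cell markers ran from 1762 to 2388 in Msi1 KO arrays and from 1455 to 1735 in wt arrays. Of the 10, 3 were below background on every array. Cd2 and Cd3g, surface proteins of T cells, differed by 0.45 ± 0.18 and 0.50 ± 0.21, Cd5 by 0.31 ± 0.13 and the dim Cd247 by 0.29 ± 0.12 (SE). Cd2 and Cd5 were dim as well, above background in Msi1 KO 2 alone. Markers of lymph node stroma were measured for 4 of 7, all with a higher mean in Msi1 KO, and summed to between 3602 and 6893 in Msi1 KO arrays and between 3052 and 3898 in wt arrays. Glycam1, a mucin of lymph node high endothelial venules, read 171, 1135 and 414 in Msi1 KO arrays, against 173, 199 and 441 in wt arrays, so Msi1 KO 2 stood highest in it too. Madcam1 and Pdpn differed by 0.25 ± 0.15 and 0.18 ± 0.23 (SE). Msi1 KO 2 was the highest array for 3 of the 4, but Pdpn was highest in Msi1 KO 1, at 3333 against 1952 in Msi1 KO 2. The wt arrays were not ordered as for the B cell genes. The stroma profile was lowest in wt 2, at -0.43, where the B cell profile was 0.05, and it was -0.24 in wt 1. The part of lymph node or other lymphoid tissue in the B cell values was not tested.

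The 8 leukocyte markers ordered the arrays differently. All 8 had a higher mean in Msi1 KO, but Msi1 KO 1 was highest for 8 of 8, and wt 1 lowest for 7. Ptprc, the leukocyte antigen CD45, read 3035 in Msi1 KO 1, 2677 in Msi1 KO 2 and 2321 in Msi1 KO 3, against 1406, 2496 and 2398 in wt arrays. Summed intensity was 17354 to 25364 in Msi1 KO arrays and 12680 to 20871 in wt arrays. So Msi1 KO 1, low for the B cell genes, was the highest array for leukocyte genes in general, and wt 1 was low for both. Coro1a, Rac2 and Lcp1 differed by 0.45 ± 0.28, 0.28 ± 0.25 and 0.29 ± 0.28 (SE). Myeloid markers had a higher mean in Msi1 KO for 5 of 10, with sums of 28010.2 to 47433 in Msi1 KO and 33628 to 38215 in wt arrays. Msi1 KO 1 was highest for 9 of the 10 and Msi1 KO 2 lowest for 6, opposite to the B cell genes. Adgre1, Fcgr3, Mrc1 and Itgam differed by 0.20 ± 0.17, -0.31 ± 0.28, -0.29 ± 0.39 and -0.09 ± 0.16 (SE).

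Plasmacytoid dendritic cell markers, some of which B cells share, had a higher mean in Msi1 KO for 6 of 6, with sums of 3338 to 3808 in Msi1 KO and 2982 to 3598 in wt arrays. Bst2, also an interferon-induced gene, differed by 0.62 ± 0.21, Cox6a2 by 0.13 ± 0.07, Irf8 by 0.26 ± 0.16 and the dim Siglech by 0.17 ± 0.12 (SE). Epithelial markers had a higher mean for 4 of 8, with sums of 46334 to 65985 in Msi1 KO and 49604 to 56636 in wt arrays. Epcam, Krt7, Krt19 and Cdh1 differed by -0.20 ± 0.10, 0.19 ± 0.17, 0.14 ± 0.15 and -0.12 ± 0.14 (SE). Acinar markers, digestive enzymes of the exocrine pancreas, had a lower mean in Msi1 KO for 8 of 8, with sums of 13365 to 37422 in Msi1 KO and 37559 to 60609 in wt arrays. Cela3b, Pnliprp1, Cpb1 and Cpa1 differed by -1.98 ± 0.59, -1.68 ± 0.51, -1.91 ± 0.61 and -1.49 ± 0.48 (SE). The part of differing cell make-up in the values of the 10 genes was not tested.

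**Figure D4:**
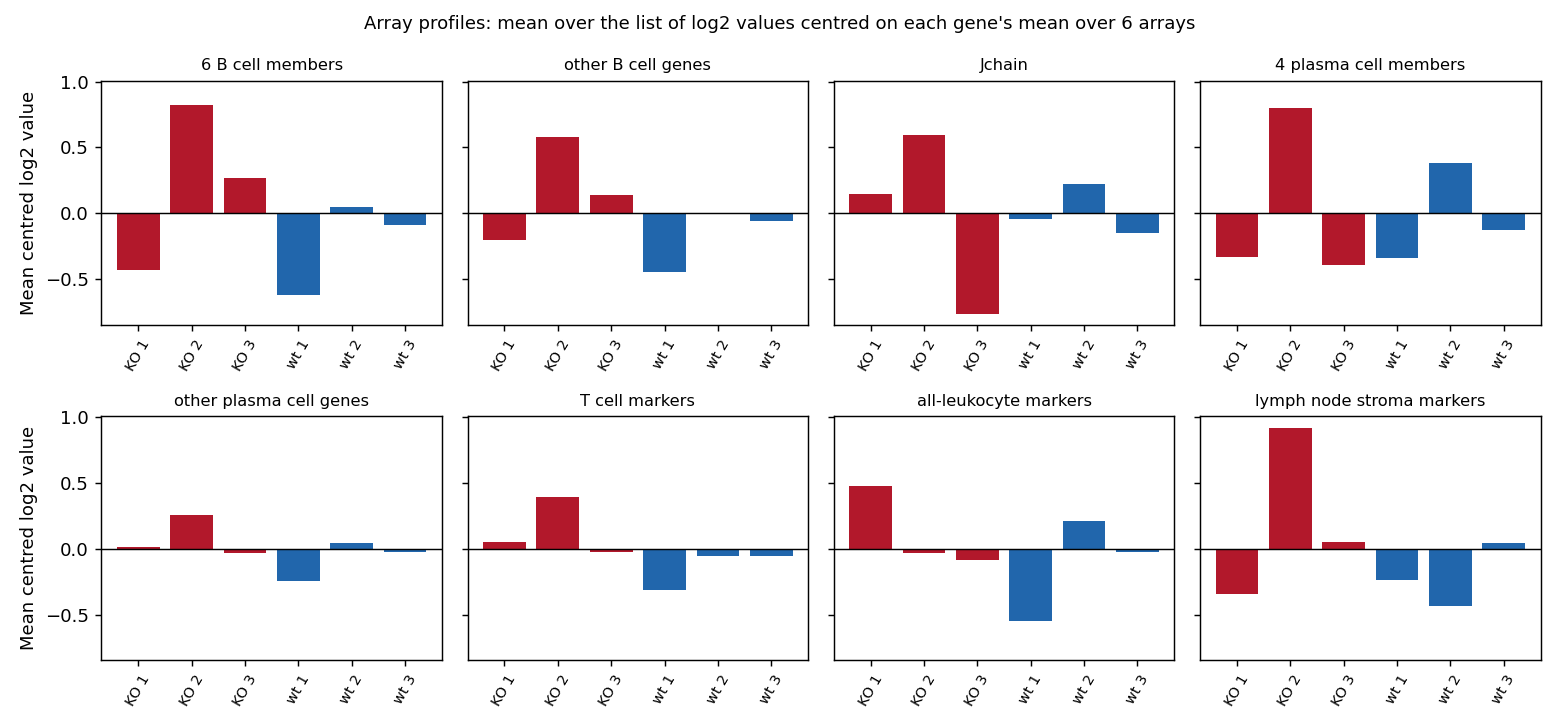
Array profiles, the mean over a list of log2 values centred on each gene's mean over the 6 arrays, with Msi1 KO arrays in red and wt arrays in blue. B cell genes, further B cell genes and T cell markers peak in Msi1 KO 2 and are lowest in wt 1, while leukocyte markers peak in Msi1 KO 1 and Jchain is lowest in Msi1 KO 3.

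The genes most like the B cell profile were sought among 9611 other genes with a mean log2 value of at least 8, by the root mean square difference of centred log2 values over the 6 arrays. The closest were Gimap8, at 0.0977, Noxo1, at 0.128, Gsdmd, at 0.139, Paqr8, at 0.14, and Ins2, at 0.142, where the profile itself had an SD of 0.52 over the arrays. Gimap8 read 264, 564 and 404 in Msi1 KO arrays, against 232, 352 and 373 in wt arrays. The gene closest to Jchain was Igkv8-30, a kappa light chain variable segment, at 0.0572, and the next, Col4a5, stood at 0.185, where Jchain had an SD of 0.45. Igkv8-30 read 7434, 9372 and 3809 in Msi1 KO arrays, against 6240.1, 8141 and 5678 in wt arrays, the array order of Jchain. Cnnm2, Dbp and Serpinb9 followed, at 0.19, 0.206 and 0.211.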

How the data were processed

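Total RNA (6 ug per labelling) from 6 samples was labelled with biotin and put on Affymetrix mouse arrays, as the labels' protocols state. The authors deposited 1 table of linear intensity values. They used GCRMA, per the submitters' processing notes, with no version given, which corrects background, normalises quantiles between arrays and summarises probes. Any later rescaling is not given in the sources read, and either step can shrink differences of dim genes.

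Of 45101 probe sets 64 controls were left out. The platform annotation gave 34945 probe sets 1 symbol, 932 several and 9160 none, with 34754 matched to RefSeq (GRCm38.p6) by Entrez ID. Those with several symbols stayed unnamed. All 45037 were fitted as log2(intensity + 1) with genotype as the only term in limma 3.58.1 (R 4.3.3, eBayes with trend), without a filter, with Benjamini-Hochberg adjustment at 0.05. Differences understate changes of dim genes. SE and 95% intervals are limma's moderated ones. The fit was tested on simulated data. Exact permutation tests used all 20 assignments of 3 and 3 arrays. The members and lists were chosen with earlier results of these data known. All 10 genes were named, and of each other list the 4 with the smallest unadjusted p. Other genes were chosen after seeing their values where so stated. The main fit did not pair samples by replicate number, and whether the numbers pair them is not known here. A further tumour allele of all 6 samples is not reported here.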

Additional observations from a re-analysis of the deposited data

How the results depend on the processing

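The 15 alternatives were a pseudocount of 16, quantile normalisation, median centring, filters at a mean log2 of 7 and 8, eBayes without trend, array weights, the replicate block, each array left out in turn, and all probe sets of a gene averaged. The count of probe sets past the threshold was 0, except 1 without Msi1 KO 1, so the fits that left out 1 array gave 0 to 1. The count at an unadjusted p under 0.05 was 1355 with all arrays, 2723 without Msi1 KO 1, 886 without wt 1, 2153 with array weights and 2120 with the replicate block. The B cell median ran from 0.12 to 0.62 when 1 array was left out and from 0.33 to 0.51 otherwise. With the filter at 8, 2 B cell genes were left. The plasma cell median ran from -0.23, without Msi1 KO 2, to 0.35, without Msi1 KO 3, and was 0.03 with array weights. Of 174 recomputed differences of single genes and probe sets 7 changed sign, and so did the plasma cell median in 2 alternatives, without Msi1 KO 2 and without wt 1 (-0.0145). Ighm ran from -0.78 to 0.018 when 1 array was left out and was 0.054 with its probe sets averaged, which brings in the pair high in Msi1 KO 2 and 3. Jchain ran from -0.32 to 0.36, Mzb1 from -0.094 to 0.58 and Pou2af1 from -0.15 to 0.53. For these the cause beyond the array left out was not tested. With the replicate block the B cell median was 0.41. In that fit 4 of the 10 genes had an unadjusted p under 0.05, beside 2120 of 45037 probe sets. In the main fit it was 1 of the 10, beside 1355. Without Msi1 KO 1 the count was 5 of the 10, beside 2723 probe sets. It was 0 without Msi1 KO 2, Msi1 KO 3, wt 1 or wt 2, and 1 without wt 3. Deviations of same-numbered arrays correlated at 0.17, -0.09 and 0.28. Msi1 KO 1 and 3 and wt 1 and 3 correlated best with their own number, and Msi1 KO 2 and wt 2 did not. Whether the numbers pair the samples thus stayed unknown. Dim values near background limit Cd79a, Cr2 and Fcer2a most. Cd79b and Ms4a1 were also near or below background in Msi1 KO 1 and wt 1. The plasma cell minus B cell profile in Msi1 KO 3, -0.66, was -0.22 with the Ighm pair, an alternative added after the data were seen.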
